A study of Mus musculus with 6 samples.

Results

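The cadherin and catenin genes Cdh1, Cdh2, Ctnna1, Ctnnb1, Ctnnd1 and Jup are 6 of the 36083 genes in the deposited expression table and were picked by name as a family, by a rule that uses no measured value, although with earlier results of these data known. They were followed in blast crisis chronic myeloid leukemia (bcCML) of the mouse, in 3 WT libraries and 3 libraries labelled Sdc1-/-. Both groups began as KLS cells, the stem and progenitor fraction of bone marrow, of B6 background donors that were either WT or Sdc1-/-. All cells of both groups carried BCR-ABL and NUP98-HOXA9 from retroviral MSCV vectors, which integrate at many sites, and were sorted for both oncogenes. By the labels they grew in NSG recipients, which lack T, B and NK cells of their own, while the general methods of the study name irradiated CD45.1 mice as primary bcCML recipients. The Lin- leukemic cells were sorted from the spleens of mice killed on the same occasion. The Sdc1-/- allele disrupts the signal peptide sequence, so that syndecan-1, a heparan sulfate proteoglycan that binds matrix and growth factors, does not reach the cell surface. Ages are not given in the labels. The labels do not say whether the 3 libraries of a group came from separate mice, and the study describes RNA-seq replicates of Lin- WT bcCML as technical, so SDs and p-values may measure technical spread only.

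Classical cadherins are calcium-dependent receptors that bind the same cadherin on a neighbouring cell. Inside the cell their tail holds p120-catenin (Ctnnd1), which keeps the cadherin from being internalised, and β-catenin (Ctnnb1) or its paralog plakoglobin (Jup), and these bring α-catenin (Ctnna1) and through it the actin cytoskeleton. β-catenin that is not held at a junction is degraded by the APC, Axin and GSK3 complex unless a Wnt signal stops it, and it then acts in the nucleus with TCF and LEF factors. In blood cells E-cadherin (Cdh1) and N-cadherin (Cdh2) are known far less than in epithelium and nerve, and β-catenin has been studied mostly for leukemic stem cell self-renewal.

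The transcript of the targeted gene was higher, not lower, under the Sdc1-/- label. Sdc1 was at 1.75, 1.21 and 1.51 rescaled TPM (a transcript level per unit of length) in the WT libraries and at 3.85, 3.8 and 4.12 in the libraries labelled Sdc1-/-, a log2 fold change of 0.99 (SE 0.0929, adjusted p = 1.2e-04, limma). The allele is described by loss of protein at the cell surface, which RNA does not measure, so these values do not settle the labels. The study checked the deletion by PCR of genomic DNA and by immunofluorescence. The groups are named by their labels and every direction below rests on those labels. The libraries correlated at 0.9929 to 0.996 within a group and at 0.9682 to 0.9716 between groups across genes, which are not independent replicates. The summed level of 4 Y-linked genes was 0.276 to 0.308 in WT and 68.1 to 78.4 in the libraries labelled Sdc1-/-, led by Eif2s3y and Ddx3y, so genotype and sex of the leukemic cells cannot be told apart. Of 10 myeloid progenitor markers, the cell type that a Lin- bcCML sort should hold, 10 had a mean over all 6 libraries of at least 1, and Mpo (322 ± 11.1 in WT, 245 ± 4.18 labelled Sdc1-/-; SD, n = 3) and Ctsg (285 ± 7.42 and 182 ± 8.34) were the most abundant. The sequencing depth behind the values is unknown, and no counting interval is given.

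Among the 6 genes Cdh1 fell to about 28.4% of its WT level, Jup fell to 73.6%, and the catenins Ctnna1, Ctnnb1 and Ctnnd1 rose to 130%, 121% and 110%. Of the 5 members with a mean of at least 1, 3 rose and 2 fell at an adjusted p under 0.05 (limma on log2 of the value plus 1, over 12155 genes). This is to be read against a comparison in which 60.7% of all tested genes passed, with a rise in 29.3% and a fall in 31.3% of all tested genes. The 3 WT values did not overlap the other 3 for any of the 6 members, as was so for 66.7% of all tested genes. Changes also depend on the scaling between libraries. When the values of each library were brought to a sum of 1000000, the midpoint of all log2 fold changes moved up by 0.13, and the calls went from 48.3% higher and 51.7% lower to 69.0% higher and 31% lower. On that sum scaling 63.1% of tested genes passed (43.5% with a rise, 19.6% with a fall), the 3 catenins still rose, Cdh1 still fell, and the fall of Jup no longer passed (log2 fold change -0.21, adjusted p = 0.1, limma). After quantile normalization 59.5% passed (31.1% and 28.4%), and without a minimum mean 32.5% of 24714 genes did (15.9% and 16.6%).

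**Figure D1:**
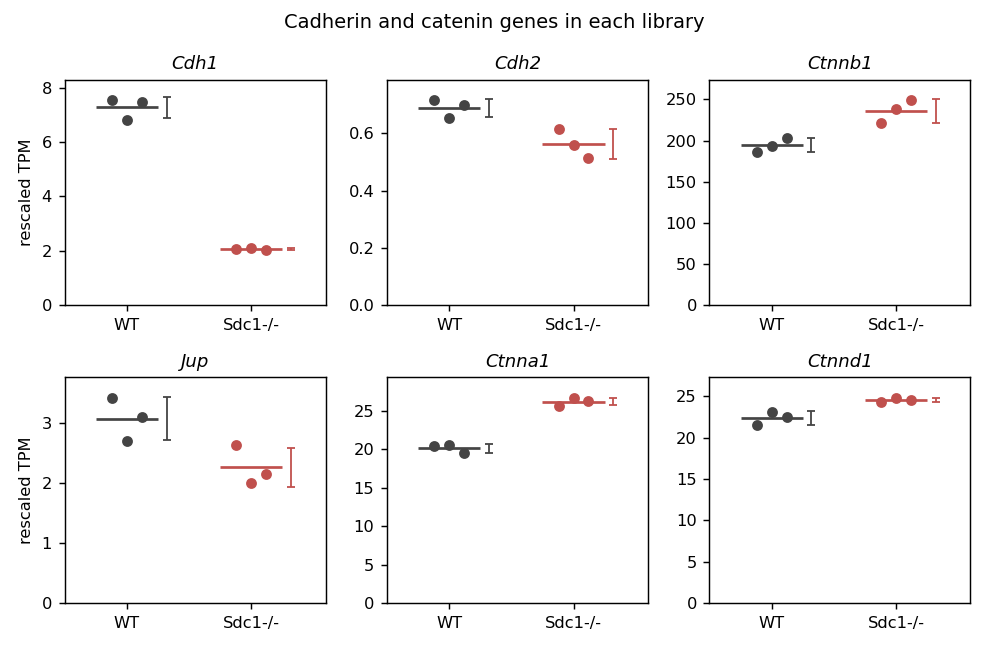
Level of each of the 6 genes in rescaled TPM (y axis, from 0), with 1 point per library, a line at the mean of the 3 libraries and a bar for the SD beside it. Cdh1 sits at 6.83 to 7.54 in WT and 2.04 to 2.09 in the libraries labelled Sdc1-/-, while Ctnnb1, Ctnna1 and Ctnnd1 are higher in the latter.

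Cdh1 (ENSMUSG00000000303, chr8:106603351-106670246, plus strand, GRCm38) encodes E-cadherin, the founding member of the classical type. It was at 7.54, 6.83 and 7.47 in the WT libraries and at 2.06, 2.09 and 2.04 in those labelled Sdc1-/-. The lowest WT library was thus far above the highest of the other group, and the values within each group were close together. The mean fell from 7.28 ± 0.394 to 2.06 ± 0.0276 (SD, n = 3 each), which is 3.53-fold lower, and the log2 fold change was -1.43 (SE 0.0583, adjusted p = 3.3e-06, limma) on the log2(value + 1) scale, where adding 1 makes the fold of so low a gene look smaller than it is. Only 136 of the 12155 tested genes, 1.12%, fell by at least as much, and 2.92% of tested genes were called at least 2-fold lower. The log2 fold change ranged from -1.77 to -1.32 over the 13 other settings in which it could be computed. In sorted cells, fewer cells of a type and less RNA per cell cannot be told apart. Cdh1 transcripts share 21 of 4569 words of 31 bases with other genes (0.460%).

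Cdh2 (ENSMUSG00000024304, chromosome 18), which encodes N-cadherin, had the lowest level of the 6 genes. It was at 0.715, 0.653 and 0.698 in WT and at 0.616, 0.559 and 0.512 in the libraries labelled Sdc1-/-, means of 0.688 ± 0.0320 and 0.562 ± 0.0519. Being under the minimum mean of 1 it was not tested, and without a minimum its adjusted p was 0.1 (limma, log2 difference -0.11). The 6 values lay within 0.512 to 0.715, and the lowest WT library was only just above the highest of the other group.

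Ctnnb1 (ENSMUSG00000006932, chr9:120929216-120960507, plus strand), the gene of β-catenin, was by far the most abundant member. It was at 186, 194 and 203 in WT and at 221, 238 and 249 in the libraries labelled Sdc1-/-. All 3 of the latter were above all 3 WT libraries, though the spread within each group was near the gap between the groups. The mean rose from 194 ± 8.63 to 236 ± 14.2, a log2 fold change of 0.28 (SE 0.0533, adjusted p = 0.0034, limma). A rise at least this large was seen in 21.2% of tested genes. On the sum scaling the rise was 0.43. Of its 5328 words of 31 bases, 702 also occur in transcripts of Ulk4, a neighbouring gene that was at 0.410 or less in every library.

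Jup (ENSMUSG00000001552, chr11:100368958-100397763, minus strand) encodes plakoglobin, the paralog of β-catenin that also sits in desmosomes. It moved the other way. It was at 3.41, 2.70 and 3.09 in WT and at 2.62, 2.0 and 2.15 in the libraries labelled Sdc1-/-, so that the lowest WT library was only just above the highest of the others. The mean fell from 3.07 ± 0.357 to 2.26 ± 0.323, a log2 fold change of -0.32 (SE 0.1, adjusted p = 0.028, limma), and 18.8% of tested genes fell at least as much. The call is a weak one, since it was lost without a minimum mean (adjusted p = 0.078) and on leaving out WT replicate 1 (0.084), WT replicate 3 (0.07), Sdc1-/- replicate 2 (0.09) or Sdc1-/- replicate 3 (0.075), all by limma, with log2 fold changes of -0.32 to -0.26 in these settings. It held without WT replicate 2 (-0.39) or Sdc1-/- replicate 1 (-0.40).

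Because the paralogs Ctnnb1 and Jup moved in opposite directions, the 250 bases before an annotated start of each are shown, from RefSeq on GRCm38.p6, written along the gene's own strand. Capitals mark the GC box GGGCGG and the CCAAT box on either strand.

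Ctnnb1, chr9:120933150-120933399, plus strand: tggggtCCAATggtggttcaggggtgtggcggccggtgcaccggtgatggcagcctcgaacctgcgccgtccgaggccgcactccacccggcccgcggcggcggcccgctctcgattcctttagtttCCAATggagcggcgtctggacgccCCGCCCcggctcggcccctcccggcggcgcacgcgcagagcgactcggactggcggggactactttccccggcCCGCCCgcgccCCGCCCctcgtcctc

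Jup, chr11:100397791-100398040, minus strand: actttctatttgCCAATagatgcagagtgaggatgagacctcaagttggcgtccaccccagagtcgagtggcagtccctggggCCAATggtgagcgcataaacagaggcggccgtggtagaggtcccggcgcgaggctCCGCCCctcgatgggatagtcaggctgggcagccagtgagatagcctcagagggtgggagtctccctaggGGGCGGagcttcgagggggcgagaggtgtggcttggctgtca

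Both windows shown hold GC and CCAAT boxes. A second RefSeq start of Ctnnb1 (window chr9:120933328-120933577, not shown) has 2 GC boxes and 0 CCAAT boxes. The Ctnnb1 window has 3 GC boxes and 2 CCAAT boxes at 74.8% G and C, and the Jup window has 2 of each at 62.0%, where the median of 32851 RefSeq promoters of this length was 52.4%. GGGCGG occurs in 32.7% and CCAAT in 33.8% of those promoters. The TCF and LEF words CTTTGAT (3.21% of promoters) and CTTTGAA (4.46%), the E2-box CAGGTG (17.2%), the ETS word CCGGAAGT (2.88%) and the CRE TGACGTCA (1.55%), searched on both strands, are not in either window. A match or its absence describes these letters only. Starts of 3 of the 6 members were in the RefSeq table, the third being Ctnnd1.

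Ctnna1 (ENSMUSG00000037815, chromosome 18), the α-catenin that links the complex to actin, had the clearest rise among the catenins. It was at 20.4, 20.6 and 19.5 in WT and at 25.7, 26.7 and 26.3 in the libraries labelled Sdc1-/-, tight groups with a wide gap between them. The mean rose from 20.1 ± 0.590 to 26.2 ± 0.5, a log2 fold change of 0.36 (SE 0.0379, adjusted p = 1.9e-04, limma), and 15.7% of tested genes rose at least as much. It stayed past the threshold in all 14 other settings, with log2 fold changes of 0.34 to 0.51.

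Ctnnd1 (ENSMUSG00000034101, chr2:84600071-84650765, minus strand), the gene of p120-catenin, changed least among the 5 tested members. It was at 21.5, 23.1 and 22.5 in WT and at 24.3, 24.8 and 24.5 in the libraries labelled Sdc1-/-, a rise from 22.4 ± 0.837 to 24.5 ± 0.214 (SD, n = 3). The log2 fold change was 0.13 (SE 0.0390, adjusted p = 0.025, limma), a rise met or passed by 34.1% of tested genes, and 0.27 on the sum scaling (adjusted p = 9.5e-04). It no longer passed after quantile normalization (adjusted p = 0.057) or on leaving out WT replicate 1 (0.075), WT replicate 3 (0.059), Sdc1-/- replicate 2 (0.081) or Sdc1-/- replicate 3 (0.06), all by limma. Of its 7606 words of 31 bases, 4453 are shared with the overlapping locus Gm28635, which was at 0.551 in WT replicate 1 and at 0 in the other 5 libraries, and reads from those words cannot be assigned to 1 locus alone. Adding that value to Ctnnd1 gave a log2 fold change of 0.12 (adjusted p = 0.024, limma).

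**Figure D2:**
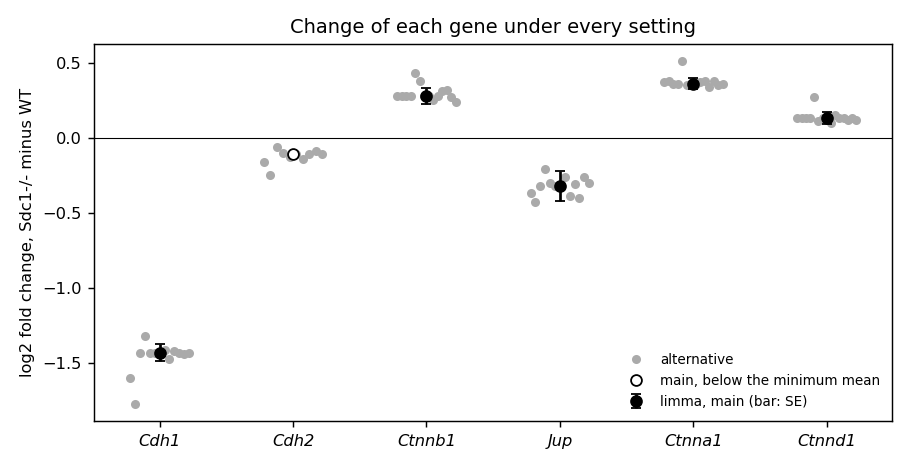
Log2 fold change of each gene (y axis, libraries labelled Sdc1-/- minus WT). Black points are the limma values with bars for the SE, the open point is Cdh2, which was below the minimum mean, and grey points are the same value under each other setting. No gene crosses 0 under any setting shown, and Cdh1 stays between -1.77 and -1.32.

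The order of the members by level per length changed between the groups. In WT it was Ctnnb1, Ctnnd1, Ctnna1, Cdh1, Jup and Cdh2, with no overlap between neighbours over the libraries. In the libraries labelled Sdc1-/- Ctnna1 came before Ctnnd1, and Cdh1 dropped to the level of Jup, with overlapping ranges of 2.04 to 2.09 and 2.0 to 2.62. Ctnnb1 was 8.69-fold above the next gene in WT and 9.0-fold above it in the other group, and it made up 77.6% to 79.2% of the summed level of the 6 genes in WT and 80.0% to 81.8% in the libraries labelled Sdc1-/-. Cdh1 made up 2.75% to 3.15% of that sum in WT and 0.670% to 0.745% in the others.

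A ratio of levels within a library does not depend on the scaling between libraries. There was 24.6, 28.5 and 27.2 times as much Ctnnb1 as Cdh1 transcript in the WT libraries and 107, 114 and 122 times as much in those labelled Sdc1-/-, so the catenin exceeded the cadherin in every library and by more in the second group. On the log2(value + 1) scale, where the added 1 makes ratios of low genes depend somewhat on scale, the ratio of Cdh1 to Ctnnb1 differed by -1.71, that of Jup to Ctnnb1 by -0.60 and that of Ctnnd1 to Ctnnb1 by -0.15, each with no overlap between the groups and an exact permutation p of 0.1 (two-sided), and no lower p can be had from 3 libraries a group. The ratio of Ctnna1 to Ctnnb1 overlapped between the groups (difference 0.09, exact permutation p = 0.400), at 9.10 to 10.4 Ctnnb1 transcripts per Ctnna1 transcript in WT and 8.60 to 9.46 in the others. Cdh1 was 2.21 to 2.53 times Jup in WT and 0.785 to 1.05 times Jup in the libraries labelled Sdc1-/-, and Ctnna1 was 0.866 to 0.950 and 1.05 to 1.08 times Ctnnd1. These last 2 ratios were chosen after the values were seen and differed by -1.11 and 0.24 on the log2 scale (exact permutation p = 0.1 each). Adjusted over the 6 ratios, the 5 lowest p-values became 0.120.

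**Figure D3:**
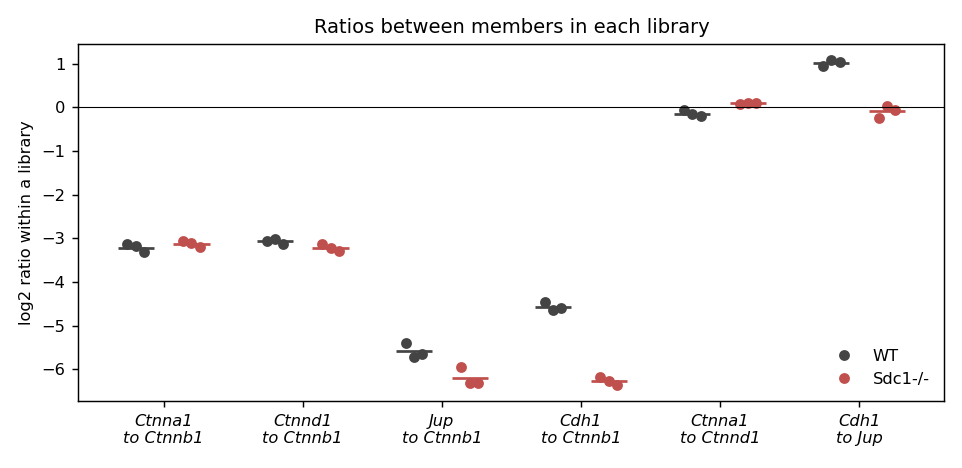
Log2 ratio of pairs of members within each library (y axis, 1 added to each value), with 1 point per library and a line at the mean of 3. Cdh1 to Ctnnb1 goes from between -4.64 and -4.45 in WT to between -6.36 and -6.18 in the libraries labelled Sdc1-/-, while Ctnna1 to Ctnnb1 overlaps.

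The genes whose log2 levels were most like each member over the 6 libraries were found among 8965 or 8966 genes with a mean of at least 5. They were Slc7a8, an amino acid transporter, and Ctse, the protease cathepsin E, for Cdh1 (Pearson r = 0.9999 for both), Leo1 and Stmn1 for Ctnna1 (0.9993 for both), mt-Nd2 and Slc18a2 for Ctnnb1 (0.9965 and 0.9961), Scaf8 and ENSMUSG00000116326 for Ctnnd1 (0.9959 and 0.9942), and Mfsd5 and Gemin8 for Jup (0.9940 and 0.9926). With 3 libraries on each side of a difference between groups, these coefficients mostly describe that difference, and all points share the scaling of the table.

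Few other cadherins were expressed. Of 25 other classical and related cadherin genes, 23 had a mean under 1 and 6 of these were at 0 in every library. Cdh9, a type II cadherin known from neurons, was at 1.54 ± 0.0319 in WT and 2.40 ± 0.138 in the libraries labelled Sdc1-/- (log2 fold change 0.42, adjusted p = 0.0014, limma), and Cdh17, the liver-intestine cadherin, was at 1.83 ± 0.164 and 1.22 ± 0.0106 (-0.35, adjusted p = 0.0056, limma). Cdh24, named after its values were seen, was at 0.280, 0.243 and 0.214 in WT and at 1.12, 1.07 and 1.28 in the other group, below the minimum mean over all 6 libraries (log2 difference 0.79, adjusted p = 2.8e-04 without a minimum, limma). In that setting 2 genes of this list were called higher and 3 lower, where 15.9% and 16.6% of all genes were. The lower ones included Cdh3 (0.0645 ± 0.00936 and 0.0262 ± 0.0111, adjusted p = 0.032) and Cdh13 (0.0553 ± 0.0124 and 0.0148 ± 0.0132, adjusted p = 0.039, limma), both near 0. VE-cadherin (Cdh5) was at 0.0239 or less everywhere.

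Among 9 other catenins and p120 relatives, 5 were tested, 1 rose and 0 fell, beside 29.3% and 31.3% of all tested genes. Pkp4, an armadillo protein of the p120 family, rose from 5.57 ± 0.101 to 9.84 ± 0.756 (log2 fold change 0.72, adjusted p = 7.1e-05, limma). Plakophilin 3 (Pkp3) was the most abundant of them, at 34.4 ± 2.62 and 30.7 ± 0.973 (-0.16, adjusted p = 0.053, limma), and α-catulin (Ctnnal1) was at 6.64 ± 1.32 and 8.20 ± 0.770 (0.28, adjusted p = 0.092), passing on the sum scaling (0.41, adjusted p = 0.026, limma). Of 9 desmosome genes 4 were at 0 in every library and only Perp, a tetraspan membrane protein and p53 target, was tested. Perp was at 45.9, 46.8 and 48.8 in WT and at 23.6, 24.2 and 26 in the libraries labelled Sdc1-/-, a fall of 0.91 on the log2 scale (adjusted p = 8.3e-06, limma). The desmosomal cadherins (Dsg and Dsc) and desmoplakin, the usual partners of plakoglobin in that junction, were all under the minimum mean.

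Actin linkers, nectins and cadherin-bound phosphatases moved both ways, 4 of 11 tested genes rising and 5 falling with a median log2 fold change of -0.13. All tested genes had a median of -0.0097, with 29.3% rising and 31.3% falling. α-actinin 4 (Actn4) fell from 156 ± 1.91 to 127 ± 1.76 (-0.30, adjusted p = 1.0e-04, limma), the phosphatase SHP-1 (Ptpn6) from 121 ± 0.736 to 89.1 ± 3.29 (-0.43), and PTP1B (Ptpn1), which can dephosphorylate β-catenin at the cadherin tail, from 51.8 ± 1.1 to 26.1 ± 0.993 (-0.96). Nectin2, an immunoglobulin-type adhesion receptor, rose from 1.40 ± 0.0725 to 4.33 ± 0.210 (1.15, adjusted p = 1.1e-05, limma). On the sum scaling 4 rose and 4 fell, where 43.5% and 19.6% of all tested genes did.

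Genes that cleave or turn over cadherins fell or did not pass, 6 of 11 tested falling and 0 rising (0 also at an unadjusted p under 0.05 in limma), with a median of -0.22. Of all tested genes 31.3% fell and 29.3% rose. Among the genes of γ-secretase, the protease that cuts cadherin stubs in the membrane, Psenen fell from 195 ± 3.46 to 166 ± 5.03 (-0.23, adjusted p = 8.0e-04, limma) and Aph1a from 104 ± 2.05 to 88.6 ± 1.04 (-0.22, adjusted p = 5.8e-04). Furin, which removes cadherin propeptides, fell from 68.5 ± 6.74 to 31.1 ± 2.39 (-1.11, adjusted p = 4.2e-05, limma). The main E-cadherin sheddase, Adam10, was at 59.4 ± 2.75 and 58.5 ± 3.72 (-0.02, adjusted p = 0.74). On the sum scaling 5 fell and 2 rose, where 19.6% and 43.5% of all tested genes did.

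Of 10 genes known to repress Cdh1 or to mark its epithelial splicing program, 5 were tested, 2 rose and 0 fell (0 also at an unadjusted p under 0.05 in limma). Among all tested genes 29.3% rose and 31.3% fell. Tcf3, whose E2A products bind E-boxes, rose from 47.8 ± 3.05 to 56.7 ± 1.40 (0.24, adjusted p = 0.0049, limma). The splicing factor Esrp2, best known from epithelial cells, rose from 3.84 ± 0.413 to 7.36 ± 1.22 (0.78, adjusted p = 9.6e-04, limma). Zeb2 was at 6.77 ± 0.518 and 7.22 ± 0.0498 (adjusted p = 0.27) and Kaiso (Zbtb33), a partner of p120-catenin, at 9.14 ± 0.591 and 8.25 ± 0.818 (adjusted p = 0.18). On the sum scaling Zeb2 passed as well (0.21, adjusted p = 0.017, limma). Snai1, named after its values were seen, was low throughout, at 0.159, 0.256 and 0.227 in WT and at 0.107, 0.0842 and 0.131 in the other group. Its log2 difference was -0.13 (adjusted p = 0.038 without a minimum, limma), where 16.6% of all genes were called lower. It went the opposite way to the 2 rises. Twist2 was at 0 in every library.

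The genes that set the level and activity of β-catenin were read on 5 lists. In the destruction complex 4 of 12 tested genes rose and 4 fell, beside 29.3% and 31.3% of all tested genes, with a median of -0.08. Apc, the scaffold of the complex, rose from 2.09 ± 0.101 to 3.52 ± 0.0265 (0.55, adjusted p = 2.2e-04, limma), and the phosphatase scaffold Ppp2r1a (124 ± 4.58 to 146 ± 2.13, 0.24) and the kinase Gsk3a (59.4 ± 1.39 to 70.0 ± 2.26, 0.23) rose less. The other GSK3 gene, Gsk3b (13.9 ± 0.869 to 10.3 ± 0.373, -0.40, adjusted p = 7.8e-04, limma), and the scaffold Axin1 (26.6 ± 1.08 to 22.6 ± 0.222, -0.23, adjusted p = 0.0024), both named after their values were seen, fell, and Axin1 no longer passed on the sum scaling (adjusted p = 0.098). Tankyrase 2 (Tnks2), which marks Axin for degradation, fell from 33.1 ± 1.77 to 24.5 ± 0.538 (-0.42, adjusted p = 2.6e-04, limma), and casein kinase 1α (Csnk1a1) was at 131 ± 5.27 and 125 ± 3.79 (adjusted p = 0.24). On the sum scaling 4 rose and 2 fell, where 43.5% and 19.6% of all tested genes did.

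Receptors and transducers of Wnt signals had the highest share of rises among the pathway lists, 7 of 10 tested genes against 1 that fell, with a median of 0.43, where 29.3% of all tested genes rose and 31.3% fell. Dvl1, the Dishevelled protein that carries the signal from Frizzled to Axin, was at 7.25, 6.46 and 8.20 in WT and at 18.6, 18.6 and 18.7 in the libraries labelled Sdc1-/- (1.25, adjusted p = 1.6e-05, limma). The Wnt receptor kinase homolog Ryk rose from 5.64 ± 0.330 to 13 ± 0.546 (1.08, adjusted p = 8.8e-06, limma) and the Wnt carrier Wls from 9.44 ± 0.919 to 12.9 ± 0.5 (0.41). The co-receptor Lrp5 fell from 8.04 ± 0.296 to 6.10 ± 0.372 (-0.35, adjusted p = 0.0016, limma). On the sum scaling 9 rose and 1 fell, where 43.5% of all tested genes rose. All 19 Wnt ligand genes had means over the 6 libraries of 0.258 or less, and 6 were at 0 in every library.

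Of 13 tested TCF and LEF factors and cofactors, 6 rose and 2 fell, beside 29.3% and 31.3% of all tested genes, with a median of -0.01. Lef1 was at 0.597, 0.361 and 0.823 in WT and at 1.31, 1.76 and 1.47 in the libraries labelled Sdc1-/- (0.66, adjusted p = 0.0038, limma), a low level throughout. The cofactor Pygo2 rose from 19.6 ± 0.193 to 23.6 ± 1.00 (0.26, adjusted p = 0.0015). The corepressor Ctbp1, at 150 ± 7.59 and 126 ± 8.58 (-0.25, adjusted p = 0.0083), and the β-catenin antagonist Cby1, at 33.4 ± 1.68 and 30.2 ± 0.239 (-0.14, adjusted p = 0.028, limma), were called lower, but neither was on the sum scaling, where Cby1 was at 0.01.

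Known Wnt target genes were mostly not expressed at a level that was tested, 12 of 14 being under the minimum mean. Myc rose from 124 ± 3.41 to 141 ± 3.76 (0.18, adjusted p = 0.0037, limma), and Cd44, at 37.7 ± 1.37 and 34.0 ± 0.733 (-0.14, adjusted p = 0.016), was called lower, a call that ended on the sum scaling (0.00). Axin2, the target most used as a readout of β-catenin activity and named here after its values were seen, was at 0.125, 0.0898 and 0.0892 in WT and at 0.383, 0.377 and 0.327 in the libraries labelled Sdc1-/-, below the minimum mean in both groups (log2 difference 0.31, adjusted p = 6.4e-04 without a minimum, limma). In that setting 32.5% of all genes passed, and of this list 3 were called higher and 1 lower. The higher ones included Apcdd1, also named after its values were seen and low in both groups (0.0140 ± 0.00316 and 0.159 ± 0.0425, adjusted p = 0.0043, limma). Ccnd1, also named after its values were seen and under the minimum mean, had a lower mean in the second group, at 0.468 ± 0.0703 and 0.320 ± 0.0881, with overlapping groups. Its log2 difference was -0.15 (adjusted p = 0.13 without a minimum, limma). Over the 11 pathway lists together 26 of 72 tested genes rose and 21 fell, beside 29.3% and 31.3% of all tested genes, and 32 and 14 did on the sum scaling, beside 43.5% and 19.6%. These shares are near the background.

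**Figure D4:**
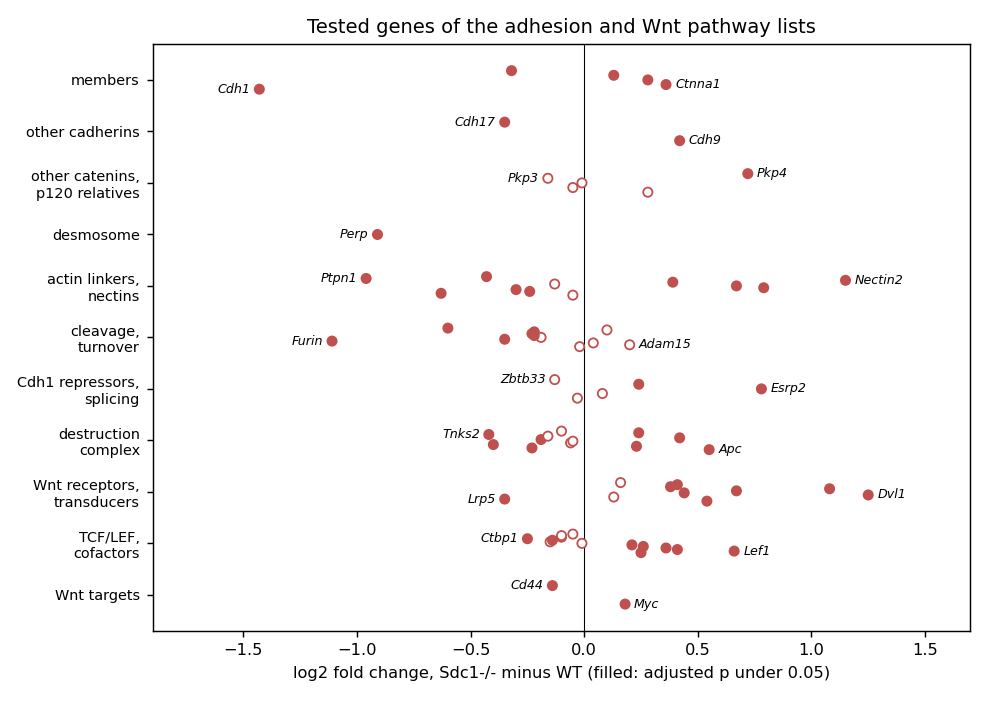
Log2 fold change (x axis, libraries labelled Sdc1-/- minus WT) of each tested gene, with 1 row per list and the genes at the ends of a row named. Filled points passed an adjusted p of 0.05, 7 of the 10 Wnt receptors and transducers lie on the right as filled points, and Cdh1 at -1.43 lies furthest to the left of all genes shown.

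Markers of other cell types moved in the same comparison, in which 31.3% of all tested genes fell and 29.3% rose. The mast cell and basophil list fell in 6 of 7 tested genes and its summed level went from 764 to 795 in WT to 362 to 371, with Hdc at 207 ± 6.92 and 54.9 ± 2.99 and Gata2 at 161 ± 11.7 and 166 ± 5.01. The macrophage list fell in 6 of 7, from sums of 61.1 to 66.3 to sums of 25.7 to 27.9, with Cd68 at 26.5 ± 1.80 and 9.23 ± 0.389 and Adgre1 at 21.0 ± 1.32 and 9.55 ± 0.482. The erythroid list fell in 8 of 12 and rose in 2, from 10778 to 11440 down to 6092 to 6457, led by Hbb-bt and Hbb-bs. These sums moved the way Cdh1 and Jup did. So did the myeloid progenitor, endothelial and stromal sums given below. The part of any of these cell types in the fall of either gene was not tested. The study's lineage antibodies include TER119 and CD11b, and the Lin- sort selects against cells that carry them. How complete this was is not known, and its bearing on these levels was not tested.

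The epithelial list, the cells in which Cdh1 and Jup are best known, went the other way. Its summed level was 2.65 to 3.29 in WT and 6.33 to 7.07 in the libraries labelled Sdc1-/-, with both tested genes rising, Epcam from 2.23 ± 0.263 to 4.62 ± 0.0392 and Krt18 from 0.528 ± 0.0939 to 1.93 ± 0.346, while Krt19 was at 0 in every library and Krt8 at 0.0255 or less. The endothelial list had sums of 140 to 164 and 121 to 130, with 2 of 4 rising and 2 falling. Its most abundant genes over all 6 libraries, Egfl7 and Pecam1, were the ones that fell. The rises, named after their values were seen, were Vwf from 4.14 ± 0.658 to 14.8 ± 0.658 and Tie1 from 0.935 ± 0.159 to 4.24 ± 0.186. The stromal list (298 to 335 and 255 to 282, 1 of 3 rising and 2 falling) rested on Thy1, with Lum at 0 and Pdgfra at 0.0128 or less. Megakaryocyte sums were 490 to 517 and 509 to 523 (2 of 6 rising, 4 falling), led by Pf4 and Itga2b. Vwf is on this list too, so its rise is counted in both lists. The myeloid progenitor sums were 1308 to 1402 and 911 to 940 (2 of 10 rising, 8 falling, beside 29.3% and 31.3% of all tested genes). Of 3 tested B and T cell genes, 0 passed in limma, and Trac alone had an unadjusted p under 0.05 (1.09 ± 0.367 and 1.65 ± 0.282, adjusted p = 0.068).

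**Figure D5:**
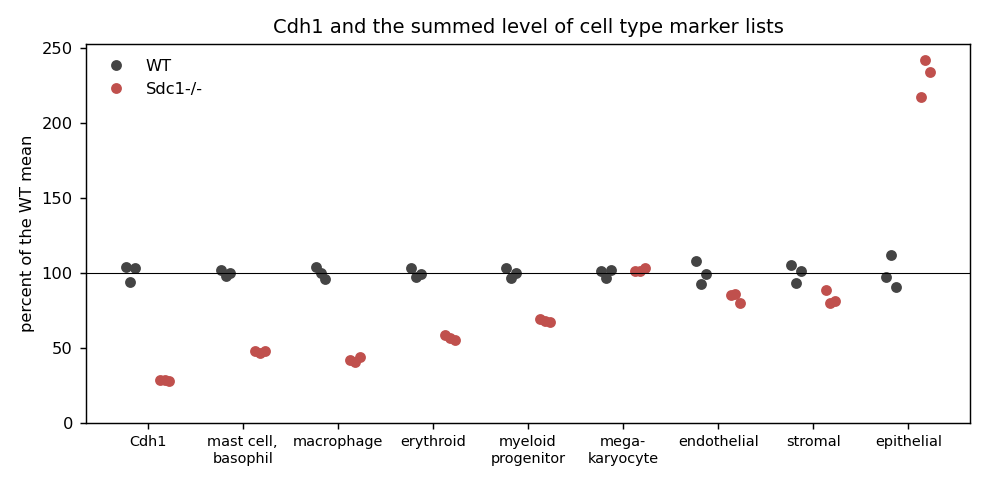
Level of Cdh1 and summed level of each marker list as a percent of the WT mean (y axis, from 0), with 1 point per library. The libraries labelled Sdc1-/- are at about 28.4% of WT for Cdh1, between 40.4% and 43.9% for the macrophage list and between 46.6% and 47.7% for the mast cell list, and between 217% and 242% for the epithelial list.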

How the data were processed

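RNA of the 6 libraries was prepared from 150 ng (TruSeq Stranded mRNA, single reads of 75 bases, NextSeq 500). Per the labels, kallisto and sleuth 0.30.0 were used with build mm10. The authors name the deposited signal a TPM per gene. It was treated here as rescaled between libraries, because each library's sum lay between 944973 and 1058263 and not at 1000000. A second deposited table holds the authors' own test results (p-values, q-values, effect sizes) and was not used. Of 36083 identifiers 35454 matched a GENCODE M21 symbol.

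Genes with a mean of at least 1 (12155) were compared on log2(value + 1) with limma 3.58.1 (R 4.3.3, variance trend, Benjamini-Hochberg, 0.05), after a check on simulated data. Ratios were compared by exact two-sided permutation. Alternatives were pseudocounts of 0.5 and 0.1, no minimum or a minimum mean of 5, a common sum, quantile normalization, no variance trend, a replicate block and leaving out each library. Named genes were the 6 members, Sdc1, the 3 most abundant genes and the called genes with the largest rise and fall of each of 11 pathway lists, the 2 genes most like each tested member, and the 2 most abundant genes of a marker list (11 lists). Members and lists were chosen with earlier results of these data known. Words of 31 bases were compared over the transcripts of GENCODE M21 (GRCm38).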

Additional observations from a re-analysis of the deposited data

How the results depend on the processing

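Over the other settings Cdh1, Ctnnb1 and Ctnna1 kept their direction and their call wherever they were tested, and no member changed sign. Cdh1 was not tested at a minimum mean of 5. The untested log2 difference of Cdh2 went from -0.11 to -0.16 and -0.25 with pseudocounts of 0.5 and 0.1 and to -0.06 with a common sum. Ctnnd1 no longer passed after quantile normalization (0.11), nor without 4 of the 6 libraries (0.10 to 0.15 over all 6), and Jup no longer passed without a minimum mean (-0.32), with a common sum (-0.21) or without 4 of the 6 libraries (-0.31 to -0.26, with -0.40 the lowest over all 6). The cause was not tested. The members called lower thus numbered 1 without a minimum mean, 0 at a minimum mean of 5 (where neither Cdh1 nor Jup is tested), 1 with a common sum, and 1 to 2 on leaving out a library. Genes of the pathway lists called higher numbered 13 at a minimum mean of 5, where fewer are tested, against 26. All genes called lower numbered 3810 and, with a common sum, 2380, with 3564 and 5286 called higher.

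By the labels, samples of the same number share only that number. Their deviations from the group means correlated at 0.151, -0.00828 and 0.0185, and with 3 libraries a group these values cannot settle whether a batch was shared. With a replicate block 3653 genes were called higher and 3971 lower, and all 5 tested members were still called (Jup adjusted p = 0.01, Ctnnd1 adjusted p = 0.027, limma). WT replicates 1 and 3 correlated best with their own number, and WT replicate 2 with Sdc1-/- replicate 3 (0.142). The depth of the libraries is unknown, so how far Cdh2, near 0.6, and Axin2 and Cdh24 are limited by counting error cannot be given.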

Other observations

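The wider cadherin superfamily, taken by symbol after the results were seen, has 118 symbols in the table, and 40 rows were at 0 in every library. Of its genes 7 were tested, among them Cdh1, Cdh9 and Cdh17, which are given above. The most abundant was Clstn1, a calsyntenin known as a cargo adaptor of kinesin, which fell from 33.6 ± 1.15 to 22.5 ± 0.871 (SD, n = 3; log2 fold change -0.56, adjusted p = 5.2e-05, limma). Its relative Clstn3 was at 10.6, 8.45 and 9.73 in WT and at 18.2, 17.1 and 18.1 in the libraries labelled Sdc1-/-, a rise of 0.83 on the log2 scale (adjusted p = 1.1e-04, limma). The protocadherin Pcdh7 rose from 6.45 ± 0.125 to 7.86 ± 0.216 (0.25, adjusted p = 0.0029, limma), and the planar polarity cadherin Celsr1 from 1.71 ± 0.0643 to 2.42 ± 0.460 (0.32, adjusted p = 0.029, limma). All 7 tested superfamily genes passed, where 60.7% of all tested genes did, but the calls of Cdh1, Cdh9 and Cdh17 are the same calls as above.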
